A study of Saccharomyces cerevisiae with 16 samples.

Results

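The data compare *lsm1∆* cells of *S. cerevisiae* after 2 h and after 1 h in 200 mM hydroxyurea (HU), with 2 RNA-seq libraries of each time, 4 of the 16 libraries of the series. HU blocks ribonucleotide reductase, the enzyme that makes deoxynucleotides, so that replication forks stall, and the comparison follows how the transcriptome of the mutant moved during the second hour of that stress. The genes described are those with at least 5 FPKM (fragments per kilobase of gene length, divided by the number of mapped fragments) in both libraries of one of the times, 6545 of the 7126 genes in the tables. Of these, 6500 could be fitted, and 6338 of them passed the 5 FPKM at both times, 103 only at 2 h and 59 only at 1 h. For such a gene the rule favours a higher value at the time through which it passed, and of these genes 7 and 3 were called. The remaining 45 lie in Ty elements, had a failed estimate in a WT library and are given as values at the end.

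All 4 libraries come from one *lsm1∆* strain in the BY4741 background, grown in YPD to mid-logarithmic phase, so the deletion is shared by both times, and a WT strain in the same medium was sampled at the same times. The deposited labels give 2 replicates, while the methods of the study call them technical, so the p-values below measure a spread that may be technical only. Lsm1 is a subunit of the cytoplasmic Lsm1-7 ring, which binds deadenylated mRNAs together with Pat1 and promotes their decapping in P-bodies. Cells that meet HU in S phase arrest with a small or large bud and activate the Mec1, Rad53 and Dun1 kinases, which among other effects relieve the repression of the ribonucleotide reductase genes. In bulk RNA, fewer cells at a cell-cycle stage and less RNA per cell cannot be told apart.

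The strain markers matched the labels. *LSM1* was listed at 0.485 and 0.268 FPKM at 2 h and at 0 in both libraries at 1 h, against 149 to 175 FPKM in the 4 WT libraries of these times. *URA3*, *LEU2* and *MET17*, which BY4741 lacks, were listed at 0, and *HIS3*, of which the strain keeps a part, had 69.8 to 86.1 FPKM. All 6 genes expressed in a cells were read, between 46.3 FPKM for *STE6* and 9603 FPKM for *MFA2*, while the 4 genes of α cells had between 1.04 FPKM for *MF(ALPHA)1* and 23.1 FPKM for *SAG1*. From the confidence bounds in the tables, about 1.01e+07 and 9.20e+06 fragments on genes were implied at 2 h, against 1.12e+07 and 1.07e+07 at 1 h. Genes near 5 FPKM then rested on a median of about 68.7 and 67.9 fragments at 2 h, against 84.0 and 80.2 at 1 h. The replicates correlated with r = 0.963 at 2 h and 0.962 at 1 h on the log2 scale over 6977 genes, which are not independent of each other, and the median difference between replicates was 0.090 at 2 h and 0.14 at 1 h in log2 units.

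Over the 6500 genes, 343 were called higher and 180 lower at 2 h in the limma fit, at an adjusted p under 0.05 (5.28% and 2.77% of genes). Changes are given as the difference of log2(FPKM + 1) with its standard error (SE), a scale that understates the change of genes with low values. Most changes were small, with the 5th and the 95th percentile at -0.39 and 0.47. The called rises had a median of 0.39 and the called falls a median of -0.38. A change of at least 2-fold and a call were combined in 14 rises and 14 falls. The median over all described genes was 0.10, so the median gene sat slightly higher at 2 h. The summed FPKM was lower, with 2.237e+06 and 2.235e+06 at 2 h, against 2.454e+06 and 2.380e+06 at 1 h. Centring each library on its median left 84 genes called higher and 264 lower (1.29% and 4.06%). The share of rises among the calls was thus 65.6% on the deposited scale and 24.1% after centring. In total 84 genes were called higher on both scales and 180 lower on both (1.29% and 2.77%), and 0 genes were called in opposite directions. With only 2 libraries a time, the libraries at 2 h lay wholly above those at 1 h in 42.7% of genes and wholly below in 15.6%, so that separation alone is common here. The number of calls also depends on each library. Without replicate 1 or 2 at 2 h, 28 and 41 genes were called higher and 54 and 51 lower, and without replicate 1 or 2 at 1 h, 122 and 40 higher and 77 and 23 lower.

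**Figure D1:**
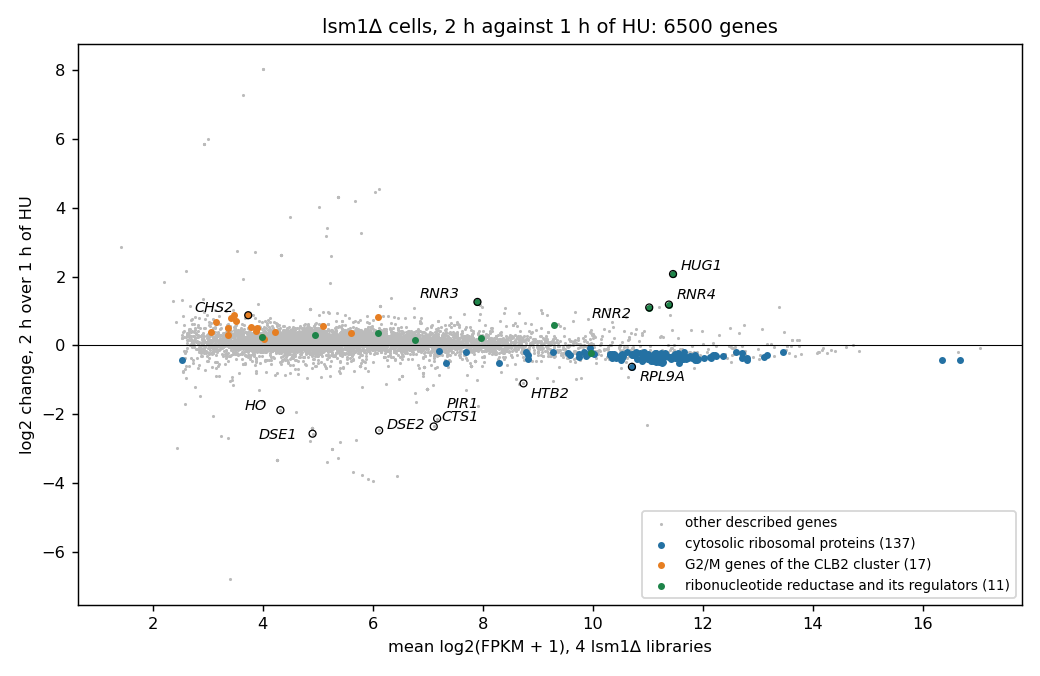
Log2 change of each of the 6500 described genes at 2 h over 1 h of HU in *lsm1∆* cells, against its mean log2(FPKM + 1) over the 4 libraries, with the members of 3 gene lists in colour and the labelled genes ringed. The 137 ribosomal protein genes form a narrow band below 0 among the most abundant mRNAs, and *DSE1* is the lowest of the labelled genes at -2.57. *HUG1*, *RNR2*, *RNR3* and *RNR4* stand above the other abundant mRNAs, while *RNR1* lies below 0 at -0.23.

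Among genes with a name, called on both scales and with no overlap between the times, 71 were higher and 166 lower, and the 15 largest changes of each direction are described here. The largest falls were in genes for the separation of mother and daughter cells. After cytokinesis the cells stay joined by a septum, which secreted chitinases and glucanases digest from the daughter side.

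*DSE1*, which encodes a daughter-specific protein needed for separation, had 11.9 and 10.7 FPKM at 2 h, against 78.1 and 65.96 FPKM at 1 h (log2 change -2.57 ± 0.14, adjusted p = 6.4e-06). *DSE2*, also expressed in daughters and encoding a secreted glucanase-like protein, had 28.7 and 28.1 FPKM at 2 h, against 160.4 and 164 FPKM at 1 h (log2 change -2.47 ± 0.07, adjusted p = 3.9e-08). For *CTS1*, the endochitinase that cuts the chitin of the septum, the values were 57.1 and 62.8 FPKM at 2 h, against 305 and 317 FPKM at 1 h (log2 change -2.36 ± 0.10, adjusted p = 1.2e-06). The replicates of these 3 mRNAs differed far less than the times did. Another listed ORF overlaps 135 bases of *CTS1*. *SCW11*, a wall glucanase-like gene, had 11.6 and 11.4 FPKM at 2 h, against 47.6 and 45.6 FPKM at 1 h (log2 change -1.93 ± 0.09, adjusted p = 1.4e-06). *EGT2*, which acts in the degradation of the wall between the cells, had 7.27 and 8.79 FPKM at 2 h, against 30.6 and 23.2 FPKM at 1 h (log2 change -1.62 ± 0.16, adjusted p = 0.000779). *SCW11* and *EGT2* followed the same pattern at lower levels. The endoglucanase gene *DSE4* had 7.67 and 9.84 FPKM at 2 h, against 25.7 and 20.3 FPKM at 1 h (log2 change -1.30 ± 0.22, adjusted p = 0.0132), and lost its call without replicate 1 of either time. *AMN1*, whose product turns off the mitotic exit network in daughters, had 35.8 and 35.2 FPKM at 2 h, against 76.6 and 91.8 FPKM at 1 h (log2 change -1.22 ± 0.09, adjusted p = 4.0e-05).

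Further falls among the 15 largest were in genes of the cell wall and in *HO*. *PIR1*, a wall glycoprotein bound to glucan, had 62.8 and 73.3 FPKM at 2 h, against 314 and 285 FPKM at 1 h (log2 change -2.12 ± 0.14, adjusted p = 3.0e-05). Its relative *PIR3* was far lower and less certain, with 4.69 and 8.52 FPKM at 2 h, against 13.8 and 14.6 FPKM at 1 h (log2 change -1.05 ± 0.23, adjusted p = 0.0277), and kept its call in 1 of the 4 fits that left out a library. *PIR3* reached the minimum of 5 FPKM in both libraries only at 1 h, the time at which it was higher. It entered only through that time, which favours a lower value at 2 h. *HO*, the endonuclease of mating-type switching, had 9.47 and 9.33 FPKM at 2 h, against 38.1 and 36.4 FPKM at 1 h (log2 change -1.88 ± 0.12, adjusted p = 1.9e-05). The calls of *PIR1* and *HO* held with any one of the 4 libraries left out, and the times were far apart in both. *SUN4*, a wall protein of septation, had 69.4 and 63.7 FPKM at 2 h, against 164 and 185 FPKM at 1 h (log2 change -1.38 ± 0.09, adjusted p = 1.9e-05). *TOS6*, a cell wall protein, had 275 and 277 FPKM at 2 h, against 615 and 490.3 FPKM at 1 h (log2 change -0.99 ± 0.15, adjusted p = 0.00897), and lost its call without replicate 1 at 2 h. *PSA1*, which makes GDP-mannose for glycosylation of wall proteins, had 1156 and 1169 FPKM at 2 h, against 2201 and 2212 FPKM at 1 h (log2 change -0.92 ± 0.07, adjusted p = 0.000114) and was the most abundant mRNA of the 15.

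**Figure D2:**
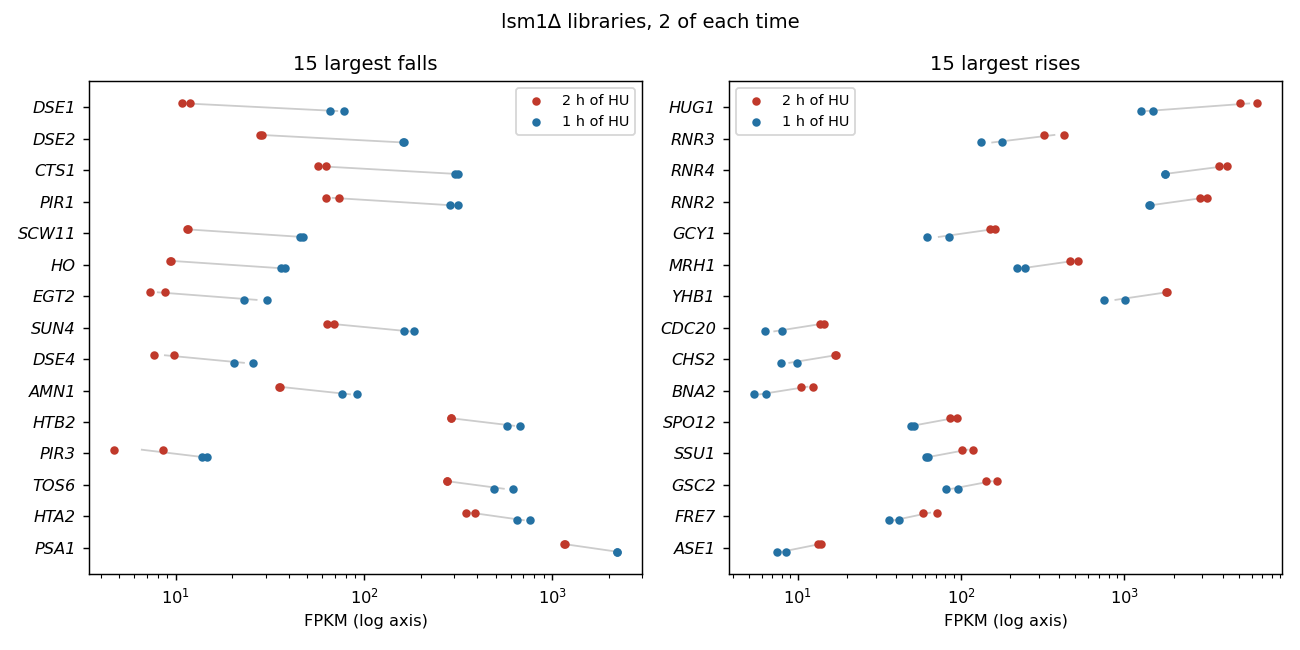
FPKM on a log axis in the 2 libraries at 2 h and the 2 at 1 h for the 15 named genes with the largest falls (left) and the 15 with the largest rises (right), with a grey line between the means. The 30 genes were chosen to have no overlap between the times. They run from *DSE1* with 10.7 to 11.9 FPKM at 2 h against 65.96 to 78.1 FPKM at 1 h to *ASE1* with 13.3 to 13.9 FPKM against 7.49 to 8.52 FPKM.

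Core histone genes were split by locus. Of the 8, the pair of the second H2A-H2B locus was called lower (2.77% of all genes) and 0 were called higher, with a list median of 0.03. *HTB2* (H2B) had 290.01 and 290.5 FPKM at 2 h, against 676 and 578 FPKM at 1 h (log2 change -1.10 ± 0.12, adjusted p = 0.000915). *HTA2* (H2A) had 348 and 388 FPKM at 2 h, against 765 and 645 FPKM at 1 h (log2 change -0.93 ± 0.14, adjusted p = 0.00764). The call of *HTA2* was lost without replicate 1 at 2 h, and that of *HTB2* held in all 4 such fits. The first H2A-H2B locus went the other way in its values without a call. *HTB1* had 1210.4 and 1202 FPKM at 2 h, against 1074 and 1031 FPKM at 1 h (log2 change 0.20 ± 0.06, adjusted p = 0.0761). *HTA1* had 408 and 404 FPKM at 2 h, against 350.3 and 318 FPKM at 1 h (log2 change 0.28 ± 0.13, adjusted p = 0.218). At the H3 and H4 genes the log2 changes were 0.36 for *HHT1* (adjusted p = 0.0919), 0.26 for *HHF1* (0.264), -0.13 for *HHT2* (0.606) and -0.19 for *HHF2* (0.487). Each histone has 2 gene copies of similar sequence, so some 50-base reads may have been shared between them.

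Genes for cytosolic ribosomal proteins, which make up the bulk of abundant yeast mRNA, fell together by a small amount. Of 137 genes, 87 were called lower (2.77% of all genes) and 0 higher on the deposited scale, and 107 were called lower after centring, so that this list holds 87 of the 180 falls. The median was -0.33, against 0.10 over all genes, and the log2 changes ran between -0.62 and -0.06. The libraries at 2 h lay below those at 1 h in 136 of the 137 genes (15.6% of all genes), and the exception was *RPL26A*, named here after its values were seen. The median level over the genes was 1930.0 and 2092 FPKM at 2 h, against 2423 and 2601 FPKM at 1 h. Their share of all FPKM was 20.4 and 21.8% at 2 h, against 24.7 and 25.6% at 1 h.

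The fall was alike in both subunits, with a median of -0.31 over 81 genes of the large subunit (48 called) and -0.35 over 56 of the small subunit (39 called). *RPL9A* had 1258 and 1445 FPKM at 2 h, against 1939.7 and 2222 FPKM at 1 h (log2 change -0.62 ± 0.10, adjusted p = 0.0108). *RPL36B* had 256 and 266 FPKM at 2 h, against 365 and 387 FPKM at 1 h (log2 change -0.52 ± 0.11, adjusted p = 0.0261). *RPL9A* and *RPL36B* were the largest called falls of the list, and each has a near-identical copy elsewhere in the genome, so the split of reads within such pairs is uncertain. In fits of the 8 *lsm1∆* libraries or of the 4 compared here alone, the median was -0.33 and 0 of these genes were called. With so small a change the count of calls in the fit of all 16 libraries also rested on the replicates. It was 0 without replicate 1 at 2 h, 18 without replicate 2 at 2 h, 35 without replicate 1 at 1 h and 0 without replicate 2 at 1 h, while the median stayed between -0.38 and -0.27.

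Rap1 is the general activator of these genes. Its motif, taken here as CCNTACA on either strand, lay in the 500 bases before the start codon of 81 of the 137 genes (59.1%), against 903 of 5622 described genes (16.1%). A stretch of the *RPS21B* promoter with a pair of matches in capitals is shown because the change of this gene differed between the strains. It covers chrX:157575-157628 on the minus strand, bases 355 to 302 before the start codon, in the R64 assembly.
RPS21B: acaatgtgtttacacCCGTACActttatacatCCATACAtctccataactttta
*RPS21B*, a small-subunit protein gene, had 3646 and 3717 FPKM at 2 h, against 4743 and 4729 FPKM at 1 h (log2 change -0.36 ± 0.06, adjusted p = 0.0155).

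Calls in other parts of the ribosome pathway were no more frequent than over all genes (5.28% higher and 2.77% lower). Of 113 genes for ribosome biogenesis 0 were called in either direction by limma, 5 had an unadjusted p under 0.05, and the list had a median of 0.09. Here the replicates at 1 h differed, with median levels of 81.5 and 79.1 FPKM at 2 h, against 60.7 and 87.6 FPKM at 1 h. The median change was -0.12 without replicate 1 at 1 h, with 1 gene called lower, and 0.30 without replicate 2 at 1 h, so no direction can be given for this list. Among 19 genes of RNA polymerases I and III, 1 was called higher, *RPC34* with 62.4 and 58.02 FPKM at 2 h, against 43.1 and 47.2 FPKM at 1 h (log2 change 0.41 ± 0.08, adjusted p = 0.0223), which kept its call in 0 of the 4 fits without a library. Their median change was -0.03 without replicate 1 at 1 h and 0.23 without replicate 2 at 1 h, so here too no direction can be given.

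The largest rises were in the ribonucleotide reductase genes and their checkpoint-controlled inhibitor. The enzyme has a large subunit, Rnr1 or the damage-inducible Rnr3, and a small subunit of Rnr2 and Rnr4. Of 11 genes for the enzyme and its regulators, 6 were called higher (5.28% of all genes) and 0 lower, 4 of them also after centring, and the median was 0.35. Leaving out one library left 3 or 4 calls.

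*HUG1*, a small inhibitor of the enzyme that the checkpoint induces, had 6507 and 5106 FPKM at 2 h, against 1493 and 1255 FPKM at 1 h (log2 change 2.07 ± 0.15, adjusted p = 4.0e-05). *RNR3* had 424 and 321 FPKM at 2 h, against 179 and 132 FPKM at 1 h (log2 change 1.26 ± 0.18, adjusted p = 0.00795) and lost its call without replicate 1 at 2 h and without replicate 2 at 1 h. *RNR4* had 4259 and 3800.2 FPKM at 2 h, against 1760.0 and 1775 FPKM at 1 h (log2 change 1.19 ± 0.06, adjusted p = 6.4e-06). *RNR2* had 3186 and 2917 FPKM at 2 h, against 1437 and 1405 FPKM at 1 h (log2 change 1.10 ± 0.06, adjusted p = 6.4e-06), with 222 bases under another listed ORF. The libraries at 2 h lay well above those at 1 h for these 4 mRNAs, and the small-subunit pair changed almost equally. The gene of the main large subunit, *RNR1*, stood apart with 881 and 964 FPKM at 2 h, against 1076 and 1080.4 FPKM at 1 h (log2 change -0.23 ± 0.16, adjusted p = 0.416).

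Among the regulators, *SML1*, the inhibitor of Rnr1, had 795 and 754 FPKM at 2 h, against 549.8 and 475 FPKM at 1 h (log2 change 0.60 ± 0.15, adjusted p = 0.0386). *WTM2*, whose relative Wtm1 holds the small subunit in the nucleus, had 34.97 and 31.7 FPKM at 2 h, against 26.7 and 26.5 FPKM at 1 h (log2 change 0.31 ± 0.07, adjusted p = 0.0346). Both calls were absent after centring and in each of the 4 fits without a library. No call was made for *DUN1*, the kinase that relieves the repression, with 75.6 and 75.5 FPKM at 2 h, against 60.9 and 57.5 FPKM at 1 h (log2 change 0.35 ± 0.10, adjusted p = 0.0622). *RFX1*, which encodes the repressor also named Crt1, had 15.2 and 17.3 FPKM at 2 h, against 13.7 and 13.3 FPKM at 1 h (log2 change 0.25 ± 0.11, adjusted p = 0.198). The log2 changes of *DIF1*, which imports the small subunit into the nucleus, and of *WTM1* were 0.15 (adjusted p = 0.235) and 0.21 (adjusted p = 0.182).

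Stretches of the *HUG1* and *RNR2* promoters are shown because these genes lead the rises. Each contains the core GGCAAC of the Crt1 motif, in capitals on either strand, which lay in the 500 bases before the start codon of 5 of the 11 genes (45.5%), 20 of 78 genes called higher on both scales (25.6%) and 778 of 5622 described genes (13.8%). Those 5 were *HUG1*, *RNR2*, *RNR3*, *RNR4* and *RNR1*, the last of which was not called. *SML1* and *WTM2*, both called higher on the deposited scale, had no match in this window. The *HUG1* stretch is chrXIII:158532-158614 on the plus strand, bases 228 to 146 before the start codon, and the *RNR2* stretch is chrX:391913-392057 on the plus strand, bases 491 to 347 before the start codon, both in the R64 assembly.
HUG1: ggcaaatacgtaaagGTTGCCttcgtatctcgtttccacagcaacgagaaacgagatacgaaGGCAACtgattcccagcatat
RNR2: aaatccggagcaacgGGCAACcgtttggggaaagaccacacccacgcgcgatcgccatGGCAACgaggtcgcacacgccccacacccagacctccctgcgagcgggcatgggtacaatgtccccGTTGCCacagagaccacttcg
*HUG1* has 2 matches on opposite strands, and *RNR2* has 3.

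A second group of rises was in genes of the *CLB2* cluster, which Fkh2 and Mcm1 switch on from S phase to mitosis. Of 17 genes, 10 were called higher (5.28% of all genes) and 0 lower, and 4 were called higher after centring (1.29% of all genes). The list had a median of 0.52, against 0.10 over all genes, and the libraries at 2 h lay above those at 1 h in 16 (42.7% of all genes). *CDC20*, the activator of the anaphase-promoting complex, had 13.7 and 14.5 FPKM at 2 h, against 6.30 and 8.06 FPKM at 1 h (log2 change 0.89 ± 0.18, adjusted p = 0.0238). *CHS2*, the chitin synthase of the primary septum, had 16.9 and 17.1 FPKM at 2 h, against 7.84 and 9.91 FPKM at 1 h (log2 change 0.88 ± 0.17, adjusted p = 0.0183). These mRNAs are rare, and neither call held in any of the 4 fits that left out a library. In those fits 1 and 0 genes of the list were called without replicate 1 or 2 at 2 h and 1 and 0 without replicate 1 or 2 at 1 h, with medians between 0.46 and 0.57. *SPO12*, a regulator of mitotic exit, had 85.3 and 93.8 FPKM at 2 h, against 51.3 and 49.4 FPKM at 1 h (log2 change 0.82 ± 0.13, adjusted p = 0.0108). *ASE1*, a bundler of spindle midzone microtubules, had 13.3 and 13.9 FPKM at 2 h, against 7.49 and 8.52 FPKM at 1 h (log2 change 0.70 ± 0.15, adjusted p = 0.0256). The call of *SPO12* held in 2 of the 4 fits and that of *ASE1* in 0. The forkhead motif GTAAACA, on either strand, was found in the 500-base window of 8 of the 17 genes (47.1%), against 589 of 5622 described genes (10.5%). Neither *CDC20* nor *CHS2* had a match. The motif was in 5 of the 15 largest falls (33.3%) and in 1 of the 15 largest rises (6.67%), so it did not mark the rises in general.

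The other genes that complete the 15 largest rises belong to no single pathway. *GCY1*, a glycerol dehydrogenase, had 149.8 and 160.4 FPKM at 2 h, against 83.96 and 62.01 FPKM at 1 h (log2 change 1.09 ± 0.19, adjusted p = 0.0151), with 255 bases under an overlapping ORF. *MRH1*, a plasma membrane protein, had 521 and 465 FPKM at 2 h, against 247 and 219.9 FPKM at 1 h (log2 change 1.08 ± 0.11, adjusted p = 0.000859). *YHB1*, the flavohaemoglobin that removes nitric oxide, had 1829 and 1788 FPKM at 2 h, against 748 and 1013 FPKM at 1 h (log2 change 1.05 ± 0.15, adjusted p = 0.00739). The last of these is among the abundant mRNAs, and its 1 h replicates differed more than its 2 h replicates. *BNA2*, the first enzyme of NAD synthesis from tryptophan, had 12.5 and 10.4 FPKM at 2 h, against 6.35 and 5.38 FPKM at 1 h (log2 change 0.86 ± 0.11, adjusted p = 0.00457). *SSU1*, a sulfite exporter, had 118 and 102 FPKM at 2 h, against 62.7 and 61.2 FPKM at 1 h (log2 change 0.81 ± 0.15, adjusted p = 0.0174). *GSC2*, the stress-induced glucan synthase subunit, had 166 and 142 FPKM at 2 h, against 95.5 and 80.3 FPKM at 1 h (log2 change 0.80 ± 0.12, adjusted p = 0.00904). *FRE7*, a metalloreductase of the copper regulon, had 70.9 and 58.3 FPKM at 2 h, against 41.8 and 36.1 FPKM at 1 h (log2 change 0.71 ± 0.13, adjusted p = 0.016). The calls of *MRH1*, *YHB1* and *BNA2* held with any one library left out, those of *GSC2* and *FRE7* in 2 of the 4 fits, that of *GCY1* in 1 and that of *SSU1* in 0.

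**Figure D3:**
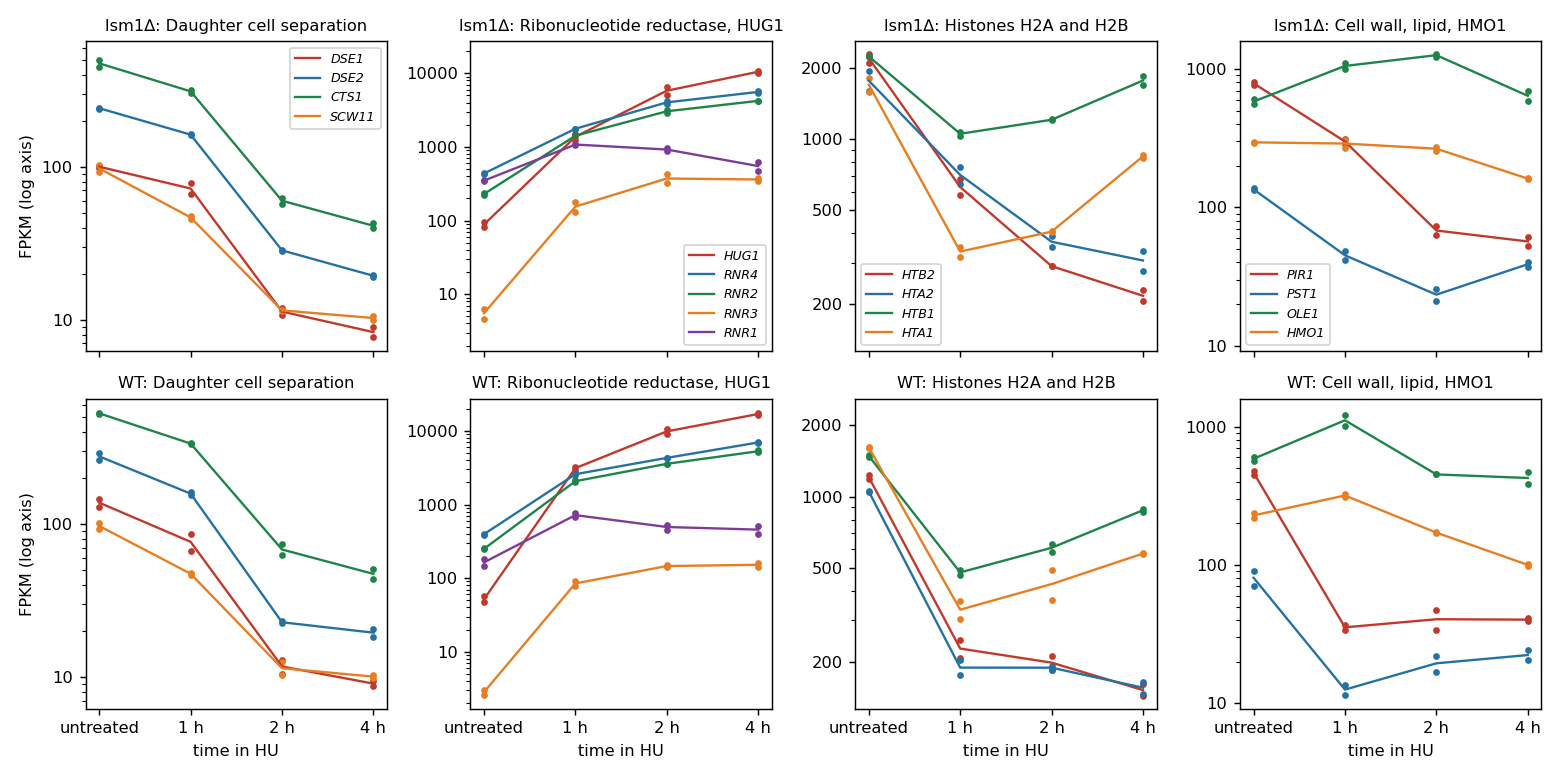
FPKM on a log axis in untreated cells and after 1, 2 and 4 h of HU in *lsm1∆* (top) and WT (bottom), with a point for each library and a line through the means. In *lsm1∆* the separation genes drop between 1 and 2 h and *HUG1*, *RNR4*, *RNR2* and *RNR3* climb, with *DSE1* at 11.3 FPKM and *HUG1* at 5806 FPKM on average at 2 h, against 72.04 and 1374 FPKM at 1 h.

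Set in the whole course in *lsm1∆* cells, the separation genes were high before HU and stayed low at 4 h. *DSE1* averaged 100.02, 72.04, 11.3 and 8.30 FPKM in untreated cells and after 1, 2 and 4 h, and *CTS1* averaged 473, 311, 59.96 and 41.1 FPKM. *HUG1* averaged 88.4, 1374, 5806 and 10506 FPKM and *RNR3* 5.52, 155, 373 and 361 FPKM, and the means of *RNR3* at 2 and 4 h were close. *RNR1* averaged 349, 1078, 923 and 549.9 FPKM, with its highest mean at 1 h. *HTB2* averaged 2197, 627, 290.2 and 217 FPKM and *HTB1* 2235, 1053, 1206 and 1768 FPKM, with the lowest mean of *HTB1* at 1 h and that of *HTB2* at 4 h. *MRH1*, by contrast, averaged 527, 233, 493 and 319 FPKM, and its rise in the second hour brought it back to near its untreated level.

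Genes of the G1/S transition, switched on by the factors MBF and SBF, had calls in both directions, 1 higher and 3 lower of 36 (5.28% and 2.77% of all genes), with a median of -0.03. *CLN2*, a G1 cyclin, had 37.4 and 38.6 FPKM at 2 h, against 55.8 and 52.3 FPKM at 1 h (log2 change -0.50 ± 0.07, adjusted p = 0.00613) and kept its call in all 4 fits without a library. *POL30*, the sliding clamp PCNA, had 77.8 and 80.7 FPKM at 2 h, against 104 and 95.8 FPKM at 1 h (log2 change -0.33 ± 0.08, adjusted p = 0.0318), with 584 bases under another listed ORF. *PLM2*, a checkpoint-induced gene for a protein with a forkhead-associated domain, had 89.2 and 94.4 FPKM at 2 h, against 63.7 and 73.7 FPKM at 1 h (log2 change 0.42 ± 0.09, adjusted p = 0.0261). Only 1 of these 4 calls, that of *CLN2*, was made in a fit that left out a library. Of 9 genes with an early cell-cycle box, 2 were called higher (5.28% of all genes), with 0 after centring and 0 in each fit without a library. The cyclin gene *CLN3* had 44.5 and 47.7 FPKM at 2 h, against 29.5 and 35.6 FPKM at 1 h (log2 change 0.50 ± 0.12, adjusted p = 0.0354). The replicative helicase gene *MCM5* had 29.8 and 30.4 FPKM at 2 h, against 21.3 and 24.2 FPKM at 1 h (log2 change 0.39 ± 0.09, adjusted p = 0.0314). Of 31 genes of the spindle and mitotic exit, 4 were called higher (5.28% of all genes) and 0 lower, with 1 higher after centring and 0 or 1 in the fits without a library. The paralogous mitotic exit kinases led them. *DBF2* had 22.9 and 22.9 FPKM at 2 h, against 14.5 and 14.4 FPKM at 1 h (log2 change 0.63 ± 0.11, adjusted p = 0.0135). *DBF20* had 16.9 and 18.6 FPKM at 2 h, against 12.3 and 12.7 FPKM at 1 h (log2 change 0.47 ± 0.09, adjusted p = 0.022). *DBF2* was called in 1 of the 4 fits without a library and *DBF20* in 0, and *DBF20* was not called after centring (adjusted p = 0.0737).

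Of 41 DNA repair genes, 5 were called higher (5.28% of all genes) and 0 lower, and 0 after centring, with a median of 0.14. *RAD14*, a nucleotide excision repair gene, had 29.9 and 33.5 FPKM at 2 h, against 21.9 and 22.6 FPKM at 1 h (log2 change 0.49 ± 0.11, adjusted p = 0.0272). *NTG1*, a DNA glycosylase gene, had 34.00 and 32.1 FPKM at 2 h, against 26.1 and 23.2 FPKM at 1 h (log2 change 0.41 ± 0.09, adjusted p = 0.0291). In the fits without a library 0 or 1 of the list was called. Changes in the proteasome list were small and even. The libraries at 2 h lay above those at 1 h in 33 of 35 genes (42.7% of all genes), the median was 0.20, and 5 were called higher (5.28% of all genes) and 0 lower, with 0 after centring and 0 in each fit without a library. *RPN6*, a lid subunit, had 249 and 244 FPKM at 2 h, against 202 and 199 FPKM at 1 h (log2 change 0.30 ± 0.06, adjusted p = 0.0256). *SCL1*, a subunit of the core, had 436 and 413 FPKM at 2 h, against 345 and 346 FPKM at 1 h (log2 change 0.29 ± 0.07, adjusted p = 0.0397). The Rpn4 motif GGTGGCAAA, on either strand, was in the window of 27 of the 35 genes (77.1%) and of 97 of 5622 described genes (1.73%), while *RPN4* itself changed by 0.08 (adjusted p = 0.619).

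**Figure D4:**
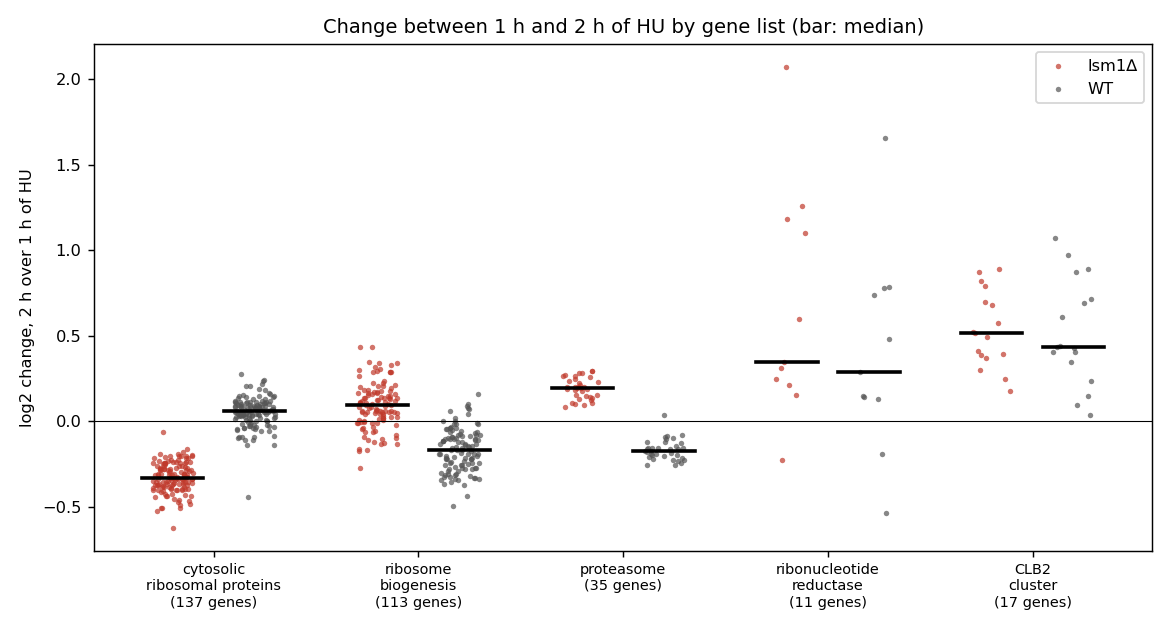
Log2 change at 2 h over 1 h of HU for each member of 5 gene lists in *lsm1∆* (red) and WT (grey), with the median as a bar. The ribosomal protein genes have a median of -0.33 in *lsm1∆* and 0.06 in WT, the proteasome genes 0.20 and -0.18, and the *CLB2* cluster 0.52 and 0.44.

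Cell wall genes were split, with 6 of 31 called higher and 3 lower (5.28% and 2.77% of all genes), and 2 higher and 3 lower after centring (1.29% and 4.06%). Beside *PIR1* and *PIR3*, *PST1*, a wall protein induced by the cell integrity pathway, fell, with 21.1 and 25.7 FPKM at 2 h, against 48.1 and 41.96 FPKM at 1 h (log2 change -0.92 ± 0.16, adjusted p = 0.0151). *DAN1*, an anaerobic mannoprotein gene, had 11.5 and 5.73 FPKM at 2 h, against 3.30 and 2.12 FPKM at 1 h (log2 change 1.32 ± 0.33, adjusted p = 0.0397), with replicates at 2 h that lay far apart. It reached 5 FPKM in both libraries only at 2 h, the time at which it was higher. It entered only through that time, which favours a higher value there. *PST1* and *DAN1* were each called in 1 of the 4 fits without a library. Without a library, 0 to 3 of the list were called higher and 1 to 3 lower. Of 27 genes of peroxide and redox defence, 2 were called in each direction (5.28% of all genes higher and 2.77% lower). *TRR1*, thioredoxin reductase, had 898 and 888 FPKM at 2 h, against 1202 and 1325 FPKM at 1 h (log2 change -0.50 ± 0.06, adjusted p = 0.00328). *TSA1*, the main peroxiredoxin, had 6292 and 6168 FPKM at 2 h, against 7833 and 7657 FPKM at 1 h (log2 change -0.31 ± 0.07, adjusted p = 0.028). Both are abundant mRNAs, while the genes that rose are less so. The mitochondrial thioredoxin gene *TRX3* had 187 and 176 FPKM at 2 h, against 121 and 127 FPKM at 1 h (log2 change 0.55 ± 0.14, adjusted p = 0.0435). *MXR1*, a methionine sulfoxide reductase gene, had 119 and 112 FPKM at 2 h, against 73.9 and 87.2 FPKM at 1 h (log2 change 0.52 ± 0.11, adjusted p = 0.0226). The call of *TRR1* held in all 4 fits without a library, that of *MXR1* in 1 and those of *TSA1* and *TRX3* in 0.

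In carbon metabolism, 3 of 19 glycolytic and fermentation genes were called lower (2.77% of all genes) and 0 higher, with a median of -0.11, and 0 were called in any fit without a library. *HXK2*, the main hexokinase, had 1085 and 1107 FPKM at 2 h, against 1401 and 1499 FPKM at 1 h (log2 change -0.40 ± 0.10, adjusted p = 0.0358). *PFK2*, a phosphofructokinase subunit, had 559 and 529 FPKM at 2 h, against 686 and 661 FPKM at 1 h (log2 change -0.31 ± 0.07, adjusted p = 0.038). *ALD4*, a mitochondrial aldehyde dehydrogenase, was the 1 of 12 genes of gluconeogenesis and of acetate or fat use called lower. It had 124 and 141 FPKM at 2 h, against 231 and 181 FPKM at 1 h (log2 change -0.62 ± 0.15, adjusted p = 0.0351). *ACS1*, an acetyl-CoA synthetase, was the 1 called higher, with 13.6 and 13.7 FPKM at 2 h, against 10.7 and 10.7 FPKM at 1 h (log2 change 0.32 ± 0.07, adjusted p = 0.0261). Neither call held in any fit without a library. Of 17 genes of trehalose and glycogen, 2 were called higher (5.28% of all genes), with 1 after centring and 0 or 1 in the fits without a library. *GLG2*, a glycogenin, had 28.1 and 32.1 FPKM at 2 h, against 20.8 and 19.1 FPKM at 1 h (log2 change 0.57 ± 0.10, adjusted p = 0.0135). *PGM1*, a phosphoglucomutase, had 135 and 139 FPKM at 2 h, against 112 and 118 FPKM at 1 h (log2 change 0.25 ± 0.06, adjusted p = 0.0359).

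Autophagy genes had 3 of 35 called higher, a share not far from the 5.28% of all genes, and 0 lower, with a median of 0.24. After centring 1 was called higher, and 1 or 2 were in the fits without a library. *ATG40*, a receptor for autophagy of the endoplasmic reticulum, had 38.6 and 38.3 FPKM at 2 h, against 25.9 and 22.1 FPKM at 1 h (log2 change 0.66 ± 0.08, adjusted p = 0.00206) and was called after centring and in all 4 fits without a library. *ATG1*, the kinase that starts the process, had 26.9 and 25.9 FPKM at 2 h, against 20.8 and 16.7 FPKM at 1 h (log2 change 0.48 ± 0.12, adjusted p = 0.0386), and was called in 1 of those fits. Of 24 sulfur amino acid genes, 2 were called higher (5.28% of all genes) and 0 after centring. *MET16* had 13.5 and 12.3 FPKM at 2 h, against 9.41 and 7.31 FPKM at 1 h (log2 change 0.58 ± 0.14, adjusted p = 0.0386). *MET13*, a methylenetetrahydrofolate reductase, had 64.2 and 53.8 FPKM at 2 h, against 41.5 and 38.9 FPKM at 1 h (log2 change 0.54 ± 0.13, adjusted p = 0.0375). Without a library, *MET16* was called in 1 of the 4 fits and *MET13* in 0. The general stress genes of Msn2 and Msn4 had 2 of 26 called higher (5.28% of all genes), 0 after centring and 0 in each fit without a library, and a list median of -0.09. *MSN4* itself had 34.6 and 38.5 FPKM at 2 h, against 27.6 and 26.2 FPKM at 1 h (log2 change 0.43 ± 0.09, adjusted p = 0.0288). The other was *SPG5*, with 94.7 and 92.2 FPKM at 2 h, against 74.3 and 77.5 FPKM at 1 h (log2 change 0.30 ± 0.06, adjusted p = 0.0241).

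Single calls remained in 6 lists, where 5.28% of all genes were called higher and 2.77% lower. In each of these lists except multidrug resistance the share called was below that over all genes. They were *FRE1* of 24 iron regulon genes (log2 change 0.47 ± 0.09, adjusted p = 0.0186), *SAM37* of 33 genes of mitochondrial protein import (log2 change 0.30 ± 0.07, adjusted p = 0.0334), *MRP51* of the 70 mitochondrial ribosomal protein genes (log2 change 0.26 ± 0.06, adjusted p = 0.0345) and *ERG8* of 25 ergosterol genes (log2 change 0.21 ± 0.05, adjusted p = 0.0396), all higher. Lower were *LEU9* of 45 Gcn4 targets (log2 change -0.27 ± 0.06, adjusted p = 0.0347) and *PDR15* of 10 multidrug resistance genes (log2 change -0.34 ± 0.09, adjusted p = 0.0448). None of these 6 calls was made in any of the 4 fits without a library, and the 4 rises were not called after centring. In 8 lists limma called 0 genes in either direction, and in these lists the count at an unadjusted p under 0.05 was 24 of 154 genes, against 1743 of all 6500. They were the decapping and decay factors, oxidative phosphorylation, heat-shock chaperones, purine biosynthesis, the phosphate response, hexose transport, the pheromone response and the a-specific genes, and after centring *DHH1*, a decapping activator, was called lower (-0.32, adjusted p = 0.00866, against 0.0714 before). The α-specific list had *SAG1* called higher, with 23.1 and 17.5 FPKM at 2 h, against 10.98 and 12.9 FPKM at 1 h (log2 change 0.71 ± 0.17, adjusted p = 0.0386), a call made neither after centring nor in any fit without a library.

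A list of 16 transcripts that the study follows is given here. It leaves out *MMR1*, *PRY3*, *UTH1* and *YML131W*, which the study also names as Yox1 targets. The 16 were chosen by the authors of the study, partly on these samples, so their values are not independent evidence. Of the 16, 0 were called by limma (8 at an unadjusted p under 0.05), with a median of 0.12. Their log2 changes ran between -0.50 for *ICS2* (adjusted p = 0.0698, and 0.0478 after centring) and 0.45 for *PHO2* (adjusted p = 0.0763). *YOX1*, the homeodomain repressor, had 25.2 and 25.4 FPKM at 2 h, against 27.8 and 27.6 FPKM at 1 h (log2 change -0.13 ± 0.13, adjusted p = 0.584). *ALD6*, the cytosolic aldehyde dehydrogenase, had 587 and 729 FPKM at 2 h, against 956 and 838 FPKM at 1 h (log2 change -0.45 ± 0.18, adjusted p = 0.155). Its replicates at 2 h were both below those at 1 h, and the change did not pass the test. *ARL3*, a small GTPase, had 66.7 and 70.5 FPKM at 2 h, against 51.2 and 59.9 FPKM at 1 h (log2 change 0.30 ± 0.09, adjusted p = 0.0649). *RRS1*, a ribosome biogenesis factor, had 264 and 275 FPKM at 2 h, against 193 and 234 FPKM at 1 h (log2 change 0.34 ± 0.14, adjusted p = 0.172). The other transcripts had log2 changes of 0.32 (*RTC1*), 0.27 (*RAD54*), 0.15 (*YHP1*), 0.14 (*ACF4*), 0.11 (*FKH2*), 0.08 (*LEU3*), 0.04 (*TMA16*), 0.00 (*RGT1*) and -0.04 (*BAS1*), each with an adjusted p of at least 0.0938.

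The same hour in WT gave 53 genes called higher and 169 lower among the 6500 (0.815% and 2.6%), or 68 and 70 after centring (1.05% and 1.08%), with a median of -0.05. The strain difference was tested as the step in *lsm1∆* minus the step in WT. It was called higher for 22 genes and lower for 5 on the deposited scale (0.338% and 0.0769%), and higher for 10 and lower for 57 after centring (0.154% and 0.877%). The median of this difference was 0.16, and 35 of the 57 were ribosomal protein genes, of which 1, *RPS21B*, was called on the deposited scale. The 8 fits that left out a library of these times called 1 to 13 genes higher and 1 to 7 lower, with the calls of *PIR1* kept in 8, *OLE1* in 6, *MET3* in 3, *HMO1* and *MET16* in 2, *HO*, *HSP150* and *SVS1* in 1, and *PST1* and *RPS21B* in 0.

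The difference between strains was not called for *DSE1* or *HUG1*. *DSE1* in WT had 10.5 and 13.04 FPKM at 2 h, against 86.2 and 67.3 FPKM at 1 h (log2 change -2.60 ± 0.14, adjusted p = 1.1e-05), and its difference between strains was 0.04 ± 0.20 (adjusted p = 0.95). *HUG1* in WT had 10604 and 9077 FPKM at 2 h, against 3277 and 2961 FPKM at 1 h (log2 change 1.65 ± 0.15, adjusted p = 0.000375), a difference of 0.42 ± 0.21 (adjusted p = 0.292). The sizes of these errors do not exclude moderate differences. Ribosomal protein genes had a median change of -0.33 in *lsm1∆* and 0.06 in WT, where 1 of 137, *RPS9A*, was called lower and 0 higher. The difference was below 0 in 136 of the 137, *RPS9A* being the exception. In WT the median level over these genes was 3782 and 3948 FPKM untreated and 1818 and 1893 FPKM at 1 h. It was 1967 and 1947 FPKM at 2 h in WT. In *lsm1∆* it was 3880 and 3789 FPKM untreated, 2423 and 2601 FPKM at 1 h. At 2 h *lsm1∆* had 1930 and 2092 FPKM, so the WT level at 1 h was already below that. The proteasome had medians of 0.20 and -0.18, with the difference called for 1 gene of the 35, *RPT4* (0.47 ± 0.08, adjusted p = 0.0487), and for 0 after centring. *DHH1* and *RPT4* were named after their values were seen.

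**Figure D5:**
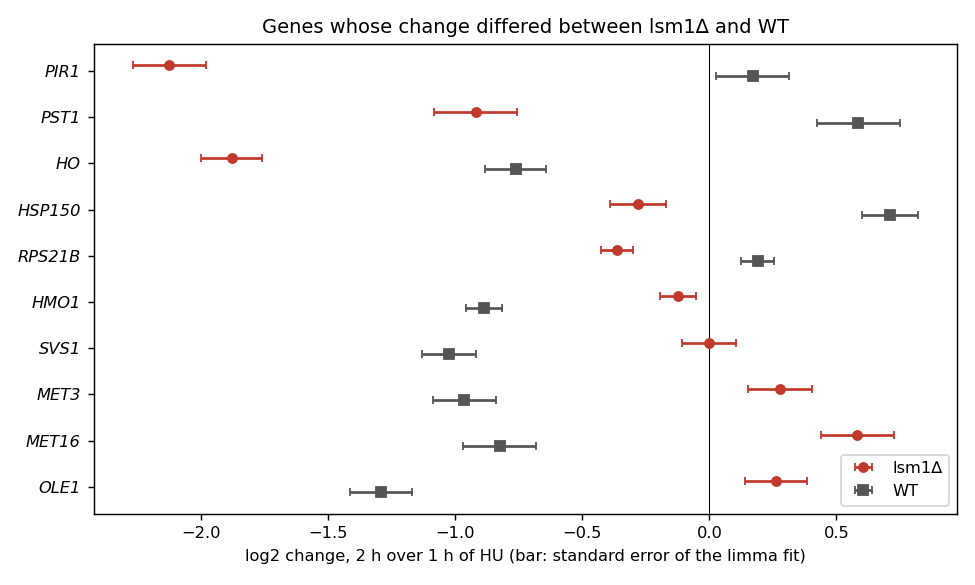
Log2 change at 2 h over 1 h of HU, with its standard error from the limma fit, in *lsm1∆* (circles) and WT (squares) for the 5 genes of each direction with the largest strain difference among named genes for which that difference was called on both scales. *PIR1* changed by -2.12 in *lsm1∆* and 0.17 in WT, and *OLE1* by 0.26 in *lsm1∆* and -1.29 in WT.

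*PIR1* gave the largest strain difference among named genes, -2.30 ± 0.20 (SE, adjusted p = 0.00202, and 0.00411 after centring). It averaged 789, 299.7, 68.1 and 56.7 FPKM in untreated *lsm1∆* cells and after 1, 2 and 4 h, against 465, 35.4, 40.5 and 40.2 FPKM in WT. Its WT libraries had 33.8 and 47.2 FPKM at 2 h, against 33.9 and 36.9 FPKM at 1 h (log2 change 0.17 ± 0.14, adjusted p = 0.613). The WT level at 1 h was thus already below the level that *lsm1∆* had at 2 h. *PST1* behaved alike, with 16.9 and 22.02 FPKM at 2 h, against 13.6 and 11.5 FPKM at 1 h in WT (log2 change 0.59 ± 0.16, adjusted p = 0.0868) and a difference of -1.51 ± 0.23 (SE, adjusted p = 0.0369, and 0.0423 after centring). *HO* fell in both strains, and less in WT, with 7.45 and 6.52 FPKM at 2 h, against 13.4 and 11.7 FPKM at 1 h (log2 change -0.76 ± 0.12, adjusted p = 0.0114) and a difference of -1.12 ± 0.17 (SE, adjusted p = 0.0369, and 0.0355 after centring). For *HSP150*, another wall glycoprotein of the Pir family, *lsm1∆* had 475 and 487 FPKM at 2 h, against 627 and 546 FPKM at 1 h (log2 change -0.28 ± 0.11, adjusted p = 0.143). WT had 671 and 713 FPKM at 2 h, against 449 and 397 FPKM at 1 h (log2 change 0.71 ± 0.11, adjusted p = 0.0104), and the difference was -0.99 ± 0.16 (SE, adjusted p = 0.0412, and 0.0347 after centring). *RPS21B* in WT had 3617 and 3247 FPKM at 2 h, against 3070.0 and 2936 FPKM at 1 h (log2 change 0.19 ± 0.06, adjusted p = 0.152), with a difference of -0.55 ± 0.09 (SE, adjusted p = 0.0428, and 0.023 after centring).

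*HTB2* and *HTA2* followed the same course as *PIR1*, short of the threshold on the deposited scale. *HTB2* averaged 1209, 228, 199 and 152 FPKM in untreated WT cells and after 1, 2 and 4 h, with a strain difference of -0.91 ± 0.16 (SE, adjusted p = 0.0571, and 0.045 after centring). *HTA2* averaged 1051, 189, 189 and 156 FPKM, with a difference of -0.94 ± 0.19 (SE, adjusted p = 0.0634, and 0.045 after centring).

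On the other side were 5 genes that fell in WT and, except *MET16*, were not called in *lsm1∆*. *OLE1*, the fatty acid desaturase, had 1231 and 1291 FPKM at 2 h, against 1104 and 1003 FPKM at 1 h in *lsm1∆* (log2 change 0.26 ± 0.12, adjusted p = 0.213). In WT it had 451 and 452 FPKM at 2 h, against 1005 and 1217 FPKM at 1 h (log2 change -1.29 ± 0.12, adjusted p = 0.000466), a difference of 1.55 ± 0.17 (SE, adjusted p = 0.0108, and 0.023 after centring). *HMO1*, an HMG-box protein at ribosomal protein promoters, had 256 and 275 FPKM at 2 h, against 270.4 and 308 FPKM at 1 h in *lsm1∆* (log2 change -0.12 ± 0.07, adjusted p = 0.319). WT had 170.4 and 172 FPKM at 2 h, against 325 and 311 FPKM at 1 h (log2 change -0.89 ± 0.07, adjusted p = 0.000199), a difference of 0.77 ± 0.10 (SE, adjusted p = 0.0218, and 0.045 after centring). *SVS1*, an SBF target, had 176 and 174 FPKM at 2 h, against 177 and 174 FPKM at 1 h in *lsm1∆* (log2 change 0.00 ± 0.11, adjusted p = 1). In WT it had 50.5 and 50.7 FPKM at 2 h, against 97.4 and 111 FPKM at 1 h (log2 change -1.02 ± 0.11, adjusted p = 0.00068), a difference of 1.02 ± 0.15 (SE, adjusted p = 0.0342, and 0.045 after centring). A pair of sulfate assimilation genes had the same pattern in WT. *MET3*, ATP sulfurylase, had 23.5 and 22.8 FPKM at 2 h, against 17.6 and 20.2 FPKM at 1 h in *lsm1∆* (log2 change 0.28 ± 0.13, adjusted p = 0.199). In WT it had 20.6 and 19.3 FPKM at 2 h, against 34.4 and 46.1 FPKM at 1 h (log2 change -0.96 ± 0.13, adjusted p = 0.0033), a difference of 1.24 ± 0.18 (SE, adjusted p = 0.0342, and 0.045 after centring). *MET16*, a reductase of the pathway that rose in *lsm1∆*, had 10.8 and 11.9 FPKM at 2 h, against 19.1 and 22.6 FPKM at 1 h in WT (log2 change -0.83 ± 0.14, adjusted p = 0.0174), a difference of 1.41 ± 0.20 (SE, adjusted p = 0.0342, and 0.045 after centring).

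Some members carry little or no test. Of the 6500 genes, 317 had fewer than 10 implied fragments in each of the 4 libraries, among them all 222 tRNA genes described, and 4 of the 317 were called. They were *YDR246W-A*, *YFR012W-A*, *YJL150W* and the tRNA gene tQ(UUG)E2, named after their values were seen. The last was listed at 245 and 271 FPKM at 2 h and at 0 in both libraries at 1 h, values that stand for 1 fragment in each library at 2 h. The 45 genes of Ty elements with a failed estimate in WT had between 8.02 and 325 FPKM on average at 2 h. Their libraries at 2 h lay above those at 1 h in 30 of the 45 and below in 0 (42.7% and 15.6% of the 6500 genes), and the median log2 change of their means was 0.53, with no test. Sequences of Ty copies are near-identical, so these values share reads.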

How the data were processed

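RNA-seq was done on WT and *lsm1∆* BY4741 cells in YPD, untreated and after 1, 2 and 4 h in 200 mM HU, with 2 libraries a group. Per the labels and the methods of the study, rRNA was depleted, TruSeq v2 libraries, which do not mark the strand, were read over 50 bases, reads were aligned to sacCer3 with TopHat2, and abundance was estimated with Cufflinks. Versions are not given in the sources used here. The deposited tables hold FPKM per gene and library with its confidence bounds and status, computed by the authors. Reads of overlapping genes and of antisense partners cannot be told apart in such libraries, and 1174 of the 6500 described genes overlap another listed gene.

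Genes with status OK in all 16 libraries and at least 1 FPKM in at least 2 of them (6977) were fitted as log2(FPKM + 1) with limma 3.58.1 in R 4.3.3 (8 group means, eBayes with trend), with two-sided p-values adjusted by the Benjamini-Hochberg method over all of them and a threshold of 0.05. "Centred" means that each library was set to its own median first. The fit was also run on simulated data with independent noise for each gene, which does not cover shifts shared by the genes of a library. Depth was implied from the deposited 95% bounds. These give a variance per value and hence an approximate fragment number, and about 38% of the values came out whole within 0.02, so no count test was run. Replicate numbers were not used to pair libraries, since the deviations of replicate 1 did not correlate in every pair of groups. Across genes r was 0.01 between 2 h and 1 h in *lsm1∆*, while *lsm1∆* and WT gave 0.26 at 1 h and 0.16 at 2 h, so the fit with a replicate block bears on the strain difference.

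Named genes are the 15 largest rises and falls among genes with a name, called on both scales and with no overlap between the times, up to 2 called genes in each direction per list, all members of the lists of ribonucleotide reductase, core histones and transcripts the study follows, and the 5 largest strain differences in each direction called on both scales. The 37 lists and the members were chosen with earlier results of these data known, and some results on lists, a motif and single genes are not reported here. Promoter windows came from RefSeq's R64 genome, in which 6048 identifiers were found, 5994 of them at the same position as in the tables. Alternatives were centring, a pseudocount of 0.1, no filter, other sets of libraries, a replicate block, a threshold of 0.01 and leaving out each library.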

Additional observations from a re-analysis of the deposited data

Results flagged for a closer look

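In 10 named genes the change from 1 h to 2 h of HU differed between *lsm1∆* and WT by the limma interaction test, on the deposited scale and after centring, and these values stand without an explanation. They are the 5 largest differences of each direction among named genes. In total 10 described genes were called higher and 5 lower on both scales. The difference, taken as the log2 change in *lsm1∆* minus that in WT, was -2.30 for *PIR1*, -1.51 for *PST1*, -1.12 for *HO*, -0.99 for *HSP150* and -0.55 for *RPS21B*. It was 1.55 for *OLE1*, 1.41 for *MET16*, 1.24 for *MET3*, 1.02 for *SVS1* and 0.77 for *HMO1*. The errors and adjusted p-values are given with each gene above. Most of these calls depended on single libraries, as given above with the strain difference. No group holds more than 2 libraries, so no library was tested as standing far from the others of its group.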

How the results depend on the processing

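No named gene that was called changed direction under any alternative run, but in most runs it could not. The filter, the set of genes adjusted over, the other sets of libraries and the replicate block left the log2 changes as they were. Genes chosen for no overlap between the times also could not change direction with a library left out. The numbers of calls varied widely. For the *lsm1∆* comparison, 343 genes were called higher and 180 lower. Centring gave 84 and 264, the 4 libraries alone 4 and 5, the 8 *lsm1∆* libraries 18 and 21, a threshold of 0.01 36 and 24, and leaving out one library 28 to 122 and 23 to 77. With a lone library left at one time, that library was assumed to vary like those of the other groups. A pseudocount of 0.1 gave 346 and 180, no filter 377 and 186, and adjustment over the described genes alone 366 and 185. The 15 largest falls were all still called after centring, with the other pseudocount, without the filter, over described genes alone and with the replicate block, 13 of them with the 8 *lsm1∆* libraries, 4 with the 4 libraries alone and 11 to 15 with one library left out. Of the 15 largest rises, 5, 0 and 6 to 11 were called in the last 3 settings.

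For the strain difference, 22 genes were called higher and 5 lower. Centring gave 10 and 57, the 8 libraries of these times 1 and 1, a threshold of 0.01 1 and 1, no filter 30 and 11, and leaving out one library 1 to 13 and 1 to 7. For WT, centring gave 68 and 70 in place of 53 and 169. The replicate numbers did not pair the libraries throughout. The deviations of replicate 1 correlated by 0.26 between the strains at 1 h and by 0.16 at 2 h, but by -0.19 at 4 h and by 0.01 between 2 h and 1 h in *lsm1∆*. With a replicate block the calls were 483 and 235 for *lsm1∆*, 34 and 20 for the strain difference, and 83 and 225 for WT.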

Other observations

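Small RNA genes sat lower at 2 h than ORFs in their medians, with log2 changes of -0.22 over 222 tRNA genes and -0.19 over 81 genes of small nuclear and nucleolar RNAs, against 0.11 over 6154 ORFs. Of these, 1 tRNA gene and 342 ORFs were called higher, 180 ORFs were called lower and 0 small nuclear or nucleolar RNA genes were called in either direction. The 20 mitochondrial ORFs had a median of 0.03 and 0 calls. All 222 tRNA genes had fewer than 10 implied fragments in each of the 4 libraries.

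Median levels of the 113 ribosome biogenesis genes at 1 h were 60.7 and 87.6 FPKM in *lsm1∆* replicates 1 and 2 and 59.7 and 87.2 FPKM in WT replicates 1 and 2. Over all 6500 genes the deviations of replicate 1 from the group mean at 1 h correlated between the strains with r = 0.26, a description across genes, which are not independent.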
